A study of Mus musculus with 20 samples.

Results

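The comparison described here is the genotype by dexamethasone interaction in mouse spinal cord: the response to dexamethasone in Cx30GRko mice minus the response in control mice, on the log2 scale. All 20 arrays of the series entered it, 5 per group, and it was read over 22180 genes, each represented by its probe set of highest mean signal. A value below 0 means that the log2 difference between Dex and saline was lower in Cx30GRko mice than in control mice, and a value above 0 that it was higher. The 4 groups were control mice given saline, control mice given dexamethasone (Dex, 4 mg/kg, intraperitoneal), Cx30GRko mice given saline and Cx30GRko mice given the same dose of Dex. All were C57BL/6J mice of 6 to 10 weeks, and cord was collected 4 h after the injection. The label Cx30GRko names a loss of the glucocorticoid receptor gene, through Cre recombination, in cells that express connexin 30, so the receptor of other cell types is not targeted. The labels do not say which alleles the control mice carry, what drives or induces the recombinase, or whether animals were pooled, so the p-values measure the spread between these samples.

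Dexamethasone is a synthetic agonist of the glucocorticoid receptor, a transcription factor that moves to the nucleus when bound and raises or lowers its target genes within hours. Almost all cell types of the cord carry the receptor, whereas connexin 30 (Gjb6) is a gap junction protein of astrocytes, with expression also in ependymal and meningeal cells. The interaction therefore sets the whole-tissue response of Cx30GRko mice against that of control mice. By the label, cells of Cx30GRko mice keep or lack the receptor gene according to their expression of connexin 30. How complete that loss was is not shown by these arrays.

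The deposited values formed 2 array sets, 12 arrays with replicates 1 to 3 and 8 arrays with replicates 4 and 5. Each probe set had been centred within them, and the array set was a block in the fit. Cx30GRko Dex replicates 4 and 5 stood apart, with an SD over probe sets of 1.81 to 1.95 against 1.66 to 1.71 on the other arrays of that set, and with mean correlations to the rest of the set of 0.862 to 0.867 against 0.873 to 0.892. List medians that the pair moved by over 1.5 times are given with and without it. Of the markers of cord cells, 18 of 19 for neurons, 19 of 20 for astrocytes, 12 of 12 for oligodendrocytes and 16 of 17 Hox genes had a mean signal above the median gene. For microglia it was 7 of 15, for ependymal cells 5 of 11, for meningeal fibroblasts 9 of 14 and for Schwann cells 7 of 8. The probe set of the targeted gene, Nr3c1, read 6.43, 6.57, 6.58, 5.40 and 6.07 under saline and 6.30, 6.11, 6.27, 6.24 and 6.18 under Dex in control mice, and 6.49, 6.34, 6.01, 6.05 and 6.07 under saline and 6.29, 6.08, 6.17, 7.79 and 6.62 under Dex in Cx30GRko mice. The genotypes overlapped under both treatments, and whether its probes lie in the deleted part is not given in the sources used here, so this reading checks little. Its interaction was 0.38 ± 0.38 (SE), and that of Gjb6 was -0.13 ± 0.27.

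No gene passed the test for the interaction. With limma and Benjamini-Hochberg adjustment, 0 of 22180 genes (0%) had an adjusted p under 0.05, and the smallest adjusted p was 0.923. At an unadjusted p under 0.05 there were 1090 genes (4.91%), 557 above 0 (2.51%) and 533 below 0 (2.4%), and at an unadjusted p under 0.01 there were 146 (0.658%). The median interaction was 0.02, and 47.2% of genes lay below 0. The Dex effect was called for 3 genes in control mice (0.0135%) and for 2 in Cx30GRko mice (0.00902%). The median 95% half-width of the interaction was 0.60 on the log2 scale, for a single gene without adjustment. For a typical gene a difference below that could not be told from 0 here. Adjustment over 22180 genes asks for more, and differences well above 0.60 were not called either.

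The array sets did not share a pattern of interaction across genes. Over the 22180 genes Pearson's r between the interaction in replicates 1 to 3 and that in replicates 4 and 5 was -0.02 (Spearman's rho -0.03), a description across genes that are not independent. The interaction had 1 sign in both sets for 10773 genes (48.6%). Genes at an unadjusted p under 0.05 in each set alone numbered 41 with 1 sign (0.185%) and 47 with opposite signs (0.212%). Split by mean signal into groups of 7393, 7393 and 7394 genes, 49.3% of the dimmest, 49.5% of the middle and 46.9% of the brightest group had 1 sign in both sets. The median SE was 0.24 in replicates 1 to 3 against 0.51 in replicates 4 and 5, and the SD of the interaction over genes was 0.31 and 0.75. The mean Dex effect over both genotypes, fitted in each set, had a Pearson's r of 0.04 across the same genes.

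**Figure D1:**
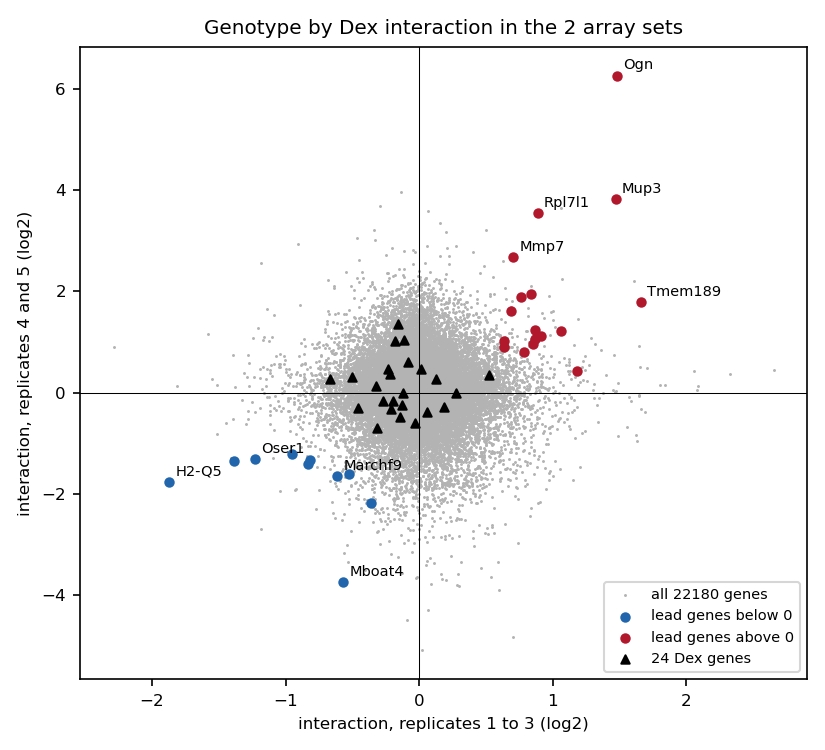
Interaction of each gene in replicates 1 to 3 (horizontal, log2) against replicates 4 and 5 (vertical, log2). Grey points are all 22180 genes and form a cloud with no slope (r of -0.02), coloured points are the 27 described lead genes, which the naming rule took from the matching corners, and triangles are the 24 Dex genes, which lie near the centre.

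The genes with the clearest mean Dex effect had Dex effects of similar median size in the genotypes. The 24 called for it (0.108% of genes, an estimate uncorrelated with the interaction in this balanced design) comprised 22 that rose and 2 that fell. Their median Dex effect, turned so that a response counts as positive, was 0.91 in control mice and 0.90 in Cx30GRko mice. The choice averages both genotypes, so a response in each was largely fixed by it, and these values describe the 24 genes. The 95% interval of the interaction included 0 for all 24, and none had an unadjusted p under 0.05. The response was smaller in Cx30GRko mice for 14 genes and larger for 10. The median signed interaction was -0.10, being -0.17 in replicates 1 to 3, where 18 were smaller, and 0.06 in replicates 4 and 5, where 12 were smaller.

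Cdkn1a, which encodes the cell cycle inhibitor p21, gave the largest mean Dex effect. It read 6.67, 7.22, 7.30, 5.60 and 6.62 in control saline and 8.29, 8.15, 8.22, 8.66 and 8.69 in control Dex. Values in Cx30GRko mice were 6.81, 6.65, 6.66, 6.03 and 6.76 under saline and 8.20, 8.07, 8.13, 8.69 and 9.20 under Dex. Every Dex array lay above every saline array in both genotypes, and the Dex arrays of the genotypes overlapped. The Dex effect was 1.72 ± 0.28 (SE) in control mice and 1.88 ± 0.28 in Cx30GRko mice, an interaction of 0.16 (95% interval -0.66 to 0.97).

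Sgk3, a kinase of the serum- and glucocorticoid-regulated family, read 5.79, 5.83, 5.94, 6.09 and 5.56 in control saline and 7.21, 7.16, 7.43, 7.39 and 6.67 in control Dex. Cx30GRko mice gave 6.07, 5.74, 6.26, 6.48 and 5.94 under saline and 7.32, 7.13, 7.06, 6.74 and 7.76 under Dex. Again no Dex array overlapped a saline array of either genotype, and the interaction was -0.23 ± 0.28 (SE). Its relative Sgk1, a kinase that acts on ion transport, had Dex effects of 0.91 ± 0.20 and 1.11 ± 0.20 and an interaction of 0.19 ± 0.28.

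Slc25a13, the mitochondrial aspartate-glutamate carrier citrin, and Zbtb16, a zinc finger transcription factor, were among the 10 genes with a larger response in Cx30GRko mice. For Slc25a13 the Dex effect was 1.22 in control and 1.52 in Cx30GRko mice, but the interaction was -0.18 in replicates 1 to 3 against 1.03 in replicates 4 and 5. Zbtb16 showed the same turn, from -0.16 to 1.36, and so did Slc2a1, the glucose transporter GLUT1, from -0.11 to 1.04. In these 3 genes the larger response lay in replicates 4 and 5, and without Cx30GRko Dex replicates 4 and 5 the interactions were 0.13, 0.15 and 0.01. Other arrays of that set also stood apart: control Dex replicate 5 was low in Slc25a13 (5.06) and Slc2a1 (7.93), and Cx30GRko saline replicate 5 was low in Zbtb16 (5.54). The responses of Arrdc2, an arrestin-domain protein (1.12 and 1.11), and of Nt5c3, a nucleotidase that acts on pyrimidine nucleotides (0.97 and 0.99), were the closest between genotypes, with intervals of the interaction from -0.65 to 0.64 and from -0.61 to 0.63. Ppp2r3a, a regulatory subunit of protein phosphatase 2A, Ccdc141 and Tgfb3, a growth factor, completed the 5 with interactions closest to 0, at 0.05, -0.08 and -0.12.

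The sign of the interaction was the same in both array sets for 12 of the 24, a share near that of all genes (48.6%). Of these 12, 9 had the smaller response in Cx30GRko mice. These were Sgk3, Pnpla2, Errfi1, Ccdc141, Rab31, Ccng1, Hif3a, Fam214a and Fbxo32. Fbxo32, the muscle and stress-linked ubiquitin ligase atrogin-1, had the smallest p for the interaction, 0.088 unadjusted by limma. It read 6.33, 6.59, 6.78, 6.81 and 5.79 in control saline and 5.75, 5.41, 5.33, 5.49 and 5.81 in control Dex. In Cx30GRko mice it read 6.63, 6.29, 6.45, 6.36 and 6.41 under saline and 5.97, 5.89, 5.86, 6.31 and 5.86 under Dex. The fall was -0.90 ± 0.18 (SE) in control mice, where 1 saline array lay within the Dex range, and -0.45 ± 0.18 in Cx30GRko mice, where 1 Dex array lay within the saline range. The interaction of 0.45 was 0.52 in replicates 1 to 3 against 0.35 in replicates 4 and 5.

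Pnpla2, the triglyceride lipase that opens lipid droplet breakdown, read 5.77, 5.84, 5.84, 5.78 and 6.06 in control saline and 6.73, 6.92, 6.78, 6.81 and 6.53 in control Dex. Values in Cx30GRko mice were 5.69, 5.53, 5.76, 5.84 and 6.11 under saline and 6.85, 6.41, 6.28, 6.21 and 6.26 under Dex. Under Dex 4 of the 5 Cx30GRko arrays lay below all control arrays, and replicate 1 lay among them. Its interaction was -0.28 (95% interval -0.72 to 0.15), with -0.15 and -0.48 in the array sets. Hif3a, a member of the hypoxia-inducible factor family, had the largest interaction of the 24 at -0.47 (interval -1.30 to 0.36), with Dex effects of 1.36 and 0.89. Fam214a had -0.25 with effects of 0.69 and 0.44. Ccng1, cyclin G1 of the p53 pathway, had -0.39 with effects of 1.69 and 1.29, and Errfi1, which curbs signalling by the epidermal growth factor receptor, -0.19 with effects of 1.12 and 0.93. The 3 genes with a larger response in Cx30GRko mice in both sets were the metallothionein Mt2, the mTOR inhibitor Ddit4 and Gbp11, an interferon-induced GTPase that fell, with interactions of 0.19, 0.18 and -0.26.

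**Figure D2:**
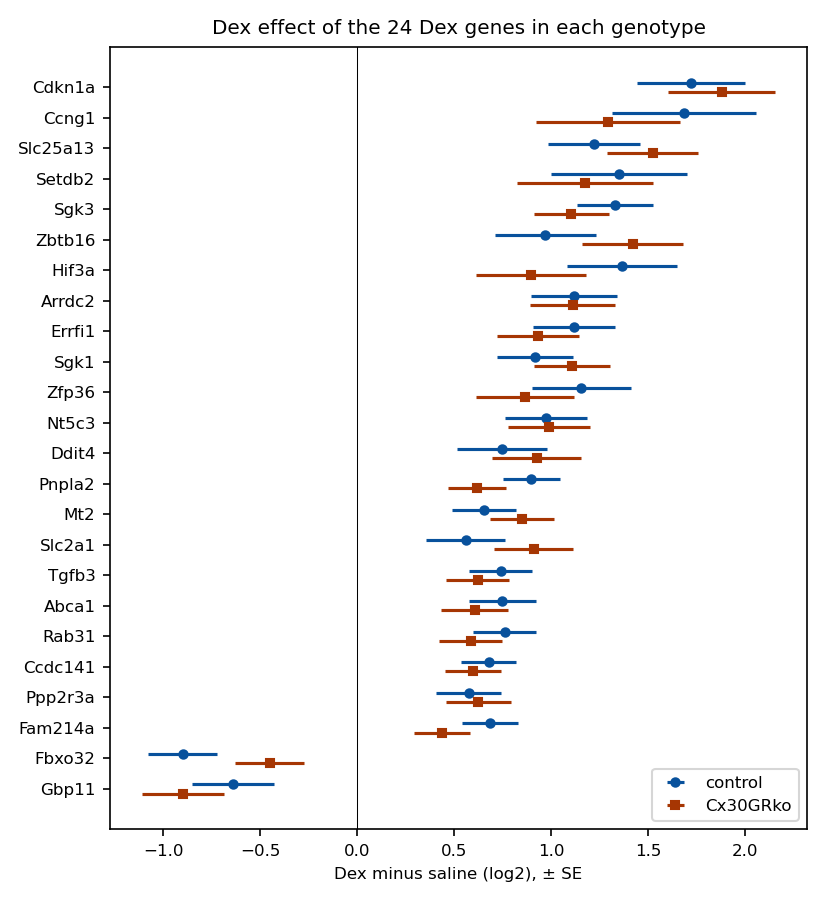
Dex effect (log2 Dex minus saline, ± SE) of the 24 Dex genes, with circles for control and squares for Cx30GRko mice. The pairs lie close together and 22 lie right of 0 in both genotypes, with Fbxo32 and Gbp11 left of 0 in both.

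Read in replicates 1 to 3 alone, a wider set of Dex genes had smaller responses in Cx30GRko mice, a pattern that replicates 4 and 5 did not show. This reading was added after the data were seen. In replicates 1 to 3 limma called 101 genes for the mean Dex effect (0.455% of genes, adjusted p under 0.05), 79 that rose and 22 that fell. The response was smaller in Cx30GRko mice for 78 of the 101 (77.2%), against 51% of all genes read the same way, with medians of 0.78 in control and 0.62 in Cx30GRko mice and a median signed interaction of -0.14. The interaction had an unadjusted p under 0.05 for 13 in the direction of a smaller response (3% of all genes) and for 1, Aire, in that of a larger one (2.27%). None passed adjustment over all genes, the smallest adjusted p among them being 0.916. In replicates 4 and 5 the same 101 genes had medians of 0.20 and 0.16, a median signed interaction of -0.02 and a smaller response for 52 (51.5%). There 69 kept the direction of the Dex effect in control and 58 in Cx30GRko mice, so little of the response could be followed. With arrays weighted by their fit, over both sets, 132 genes were called for the mean Dex effect, of which 84 had the smaller response in Cx30GRko mice (14 at an unadjusted p under 0.05, against 1 larger). In that fit 1164 of 22180 genes had an unadjusted p under 0.05 for the interaction, in either direction. The share of all genes with a smaller response was not taken there. The fit includes the arrays of replicates 1 to 3, so it is not independent of the reading above.

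These 14 genes were named after their values were seen. Dio2, the deiodinase that activates thyroid hormone in astrocytes, had the smallest p (0.0043 unadjusted by limma). In replicates 1 to 3 of control mice it read 4.81, 4.31 and 4.17 under saline and 5.66, 5.65 and 5.67 under Dex. In those of Cx30GRko mice it read 4.79, 4.79 and 5.22 under saline and 5.46, 4.93 and 5.28 under Dex. The control groups lay apart and the Cx30GRko groups overlapped. The Dex effects were 1.23 and 0.29, an interaction of -0.94 ± 0.27 (SE), against 0.13 in replicates 4 and 5.

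Sox2, a transcription factor of neural progenitors and astrocytes, fell by 0.78 in control mice, from 7.53, 7.50 and 7.39 to 6.71, 6.64 and 6.73. Cx30GRko mice gave 7.55, 7.74 and 7.64 under saline and 7.31, 7.44 and 7.27 under Dex, a difference of -0.30. Saline and Dex did not overlap in either genotype, and control Dex lay below every Cx30GRko Dex array. The interaction of 0.48 ± 0.14 (SE) turned to -1.38 in replicates 4 and 5, where control saline read 5.72 and 7.39 and control Dex 8.69 and 7.80. Ppp1r3c, a glycogen-targeting subunit of protein phosphatase 1, had Dex effects of 0.86 and 0.30 in replicates 1 to 3 and an interaction of -0.56, and 1.02 in replicates 4 and 5.

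The sign of the interaction was the same in replicates 4 and 5 for 6 of the 14, no larger a share than that of all genes (48.6%). The 6 were Fbxo32, Gadd45g, Castor1, Mthfd2, Sh3gl1 and Aire. Gadd45g, a growth arrest gene induced by stress, read 4.47, 4.98 and 4.41 in control saline and 5.97, 6.29 and 6.42 in control Dex. In Cx30GRko mice it read 4.74, 4.52 and 5.16 under saline and 6.17, 5.10 and 5.00 under Dex, where replicate 1 lay at the control level and the others near saline. Its interaction was -0.99 ± 0.41 (SE) in replicates 1 to 3 and -0.36 in replicates 4 and 5. For Castor1, an arginine sensor of the mTOR pathway, these were -0.52 and -0.72, and for Mthfd2, an enzyme of mitochondrial folate metabolism, -0.51 and -0.19. The other members of the 14 were Depdc7, Lao1, Rasgrp3, Rnpep and the predicted gene Gm10863.

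The wider list of known glucocorticoid receptor targets also separated Dex from saline in both genotypes. Of its 34 measured members, 24 had an interaction above 0 (70.6%, against 52.8% of all genes) and none reached an unadjusted p under 0.05 in either direction. The median was 0.18 over all arrays, -0.08 in replicates 1 to 3 against 0.35 in replicates 4 and 5. The mean over the members was -0.42, -0.28, -0.34, -0.28 and -0.16 in control saline and 0.56, 0.46, 0.32, 0.19 and 0.04 in control Dex, after centring within the array sets. Values in Cx30GRko mice were -0.40, -0.51, -0.38, -0.34 and -0.22 under saline and 0.32, 0.31, 0.36, 0.31 and 0.47 under Dex. All 10 Dex arrays lay above all saline arrays, and the interaction of this mean was 0.12 ± 0.12 (SE). Fkbp5, a co-chaperone that dampens the receptor, had Dex effects of 0.60 and 0.78 and an interaction of 0.18 ± 0.37, Tsc22d3 (GILZ, an anti-inflammatory target) one of 0.19 ± 0.20, and the clock gene Per1 one of 0.34 ± 0.28. The members with the smallest p were Il6ra, the interleukin 6 receptor, at 0.56 (interval -0.01 to 1.13), and the kinase Pim3 at -0.49 (interval -1.04 to 0.05). Il6ra had Dex effects of 0.38 and 0.94, and Pim3 of 0.63 and 0.14.

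Promoter sequence was compared for these 2 groups because the receptor binds a palindromic element. In the 250 bases before each start (RefSeq, GRCm38.p6), read on both strands, the full element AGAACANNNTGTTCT was in 3 of 32851 windows (0.00913%), 1 of them that of Sgk1. Its left arm AGAACA alone, which the full element contains on both strands, was in 16.1% of all windows, in 5 of 29 windows of the 19 matched Dex genes (17.2%) and in 4 of 22 windows of the 20 matched lead interaction genes (18.2%). Stretches of Sgk1 (chr10:21993671-21993745, plus strand), Abca1 (chr4:53159938-53160003, minus strand) and Fam214a (chr9:74975905-74975970, plus strand) are shown with the match in capitals. They come from 3 of the 5 windows in which the Dex genes hold a match. The remaining windows, of further Sgk1 starts with the left arm alone, are not printed.
Sgk1: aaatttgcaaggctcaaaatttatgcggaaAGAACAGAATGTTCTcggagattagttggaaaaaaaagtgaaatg
Abca1: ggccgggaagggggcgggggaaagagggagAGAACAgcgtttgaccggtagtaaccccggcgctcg
Fam214a: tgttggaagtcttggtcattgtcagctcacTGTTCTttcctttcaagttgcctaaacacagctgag
Of these 3 Dex genes, Sgk1 had an interaction of 0.19, Abca1, the cholesterol exporter, one of -0.14 and Fam214a one of -0.25. A match describes the letters of the window and is no evidence of binding.

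Lost and gained responses were also sought without any list, by choosing genes at an unadjusted p under 0.01 in one array set and reading them in the other. The 481 genes with a Dex effect in control mice in replicates 1 to 3 had a median effect of 0.61 there. In replicates 4 and 5 the same genes had medians of 0.05 in control and 0.07 in Cx30GRko mice. The response was smaller in Cx30GRko mice for 47.8% of them, against 48.2% of all genes read the same way. Choosing 223 such genes in replicates 4 and 5 and reading replicates 1 to 3 gave 53.4% against 50.3%. Genes chosen for a Dex effect in Cx30GRko mice gave 50% of 320 (50.8% of all genes) when read in replicates 4 and 5, and 58.1% of 907 (51.9%) when read in replicates 1 to 3. Of those 907, chosen in the set with the arrays that stand apart, 50.3% had the same direction in Cx30GRko mice and 58.7% in control mice of replicates 1 to 3. In all 4 readings the median Dex effect in the other set was at most 0.07 in either genotype, so little response was left in which a loss or gain could show.

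The lead genes of the interaction, taken by a fixed rule from the smallest p and from the largest size in both sets, numbered 33. Of these 6 were predicted genes or members of receptor families and are not described. The values below chose these genes, so they are a description, and their adjusted p lay between 0.923 and 0.924. For all 33 the Dex effects of the genotypes had opposite signs, as they had for 46.2% of all genes. The 10 described genes below 0 were higher under Dex in control mice and lower under Dex in Cx30GRko mice, and the 17 above 0 the reverse.

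Marchf9, a membrane-bound ubiquitin ligase, led the described genes below 0 by p. It read 3.70, 3.97, 4.06, 3.74 and 3.59 in control saline and 4.71, 4.36, 4.28, 5.09 and 4.66 in control Dex. Cx30GRko mice gave 3.95, 4.07, 4.17, 3.94 and 4.37 under saline and 3.90, 3.96, 4.11, 4.04 and 3.40 under Dex. Control Dex stood above every array of control saline and of Cx30GRko Dex, while the Cx30GRko groups overlapped. The interaction was -1.03 ± 0.25 (SE; unadjusted p = 0.00044 by limma), -0.61 in replicates 1 to 3 against -1.64 in replicates 4 and 5.

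Tmem169, a transmembrane protein, read 5.44, 5.09, 5.33, 5.06 and 4.59 in control saline and 5.80, 5.82, 5.36, 5.88 and 6.01 in control Dex. In Cx30GRko mice it read 5.59, 5.72, 5.71, 5.91 and 5.95 under saline and 5.48, 5.74, 5.34, 5.55 and 5.34 under Dex. Control saline was low, with all arrays below all of Cx30GRko saline, so its interaction of -0.96 combines a genotype difference under saline with one of the opposite sign under Dex. Oser1, linked to the oxidative stress response, had -1.26 ± 0.34 (SE) with nearly equal values in the array sets (-1.23 and -1.31). It averaged 4.86, 5.58, 5.65 and 5.10 in control saline, control Dex, Cx30GRko saline and Cx30GRko Dex, with overlap between groups.

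Other genes below 0 were Pou3f3, a neural POU transcription factor (-1.08), Gnpda1, a glucosamine-6-phosphate deaminase (-1.06), Npy2r, the Y2 receptor of neuropeptide Y (-1.02), and Mboat4, the acyltransferase of ghrelin (-1.84). Mboat4 read 2.20 and 2.61 in Cx30GRko Dex replicates 4 and 5 and between 4.20 and 5.95 on the other 18 arrays, and its interaction was -0.57 in replicates 1 to 3 against -3.75 in replicates 4 and 5. H2-Q5 (-1.83), Prl2c5 (-1.37) and Tcstv1 (-1.05) belong to families of near-identical genes whose probes may cross-hybridise, so their values are uncertain.

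Tmem189 was the single-copy gene with the smallest p above 0. It read 4.81, 5.59, 6.08, 5.84 and 5.41 in control saline and 4.80, 4.44, 5.06, 4.96 and 4.49 in control Dex. Values in Cx30GRko mice were 4.62, 4.48, 4.62, 4.09 and 5.00 under saline and 6.06, 5.48, 4.96, 5.98 and 4.89 under Dex. The interaction was 1.71 ± 0.36 (SE; unadjusted p = 0.00012 by limma), and 1.66 and 1.79 in the array sets. Of the arrays of control Dex and Cx30GRko saline none exceeded 5.06, and of those of control saline and Cx30GRko Dex none lay below 4.81.

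Mup3 read 3.69, 5.35, 5.82, 4.77 and 6.40 in control saline and 3.94, 3.40, 3.93, 2.68 and 3.03 in control Dex. Cx30GRko mice gave 3.52, 3.30, 3.36, 3.10 and 3.14 under saline and 3.70, 3.72, 3.57, 4.07 and 4.34 under Dex. Control saline stood high, with 4 of its 5 arrays above all others, and the interaction was 2.41 ± 0.50 (SE). Without control saline replicate 1, the low array of that group, Mup3 was the 1 gene called, with an adjusted p of 0.0169 by limma. Major urinary proteins are a family of near-identical liver genes, so which member this probe set reads is uncertain.

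Mmp7, the matrix protease matrilysin, read 4.43, 3.93, 4.10, 4.77 and 5.28 in control saline and 3.47, 3.69, 3.72, 3.27 and 3.48 in control Dex. In Cx30GRko mice it read 3.91, 4.19, 4.09, 3.09 and 3.56 under saline and 4.55, 4.29, 3.89, 4.49 and 4.21 under Dex. The control groups did not overlap, and Cx30GRko Dex lay above all of control Dex. The interaction of 1.49 ± 0.34 (SE) was 0.70 in replicates 1 to 3 against 2.68 in replicates 4 and 5.

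**Figure D3:**
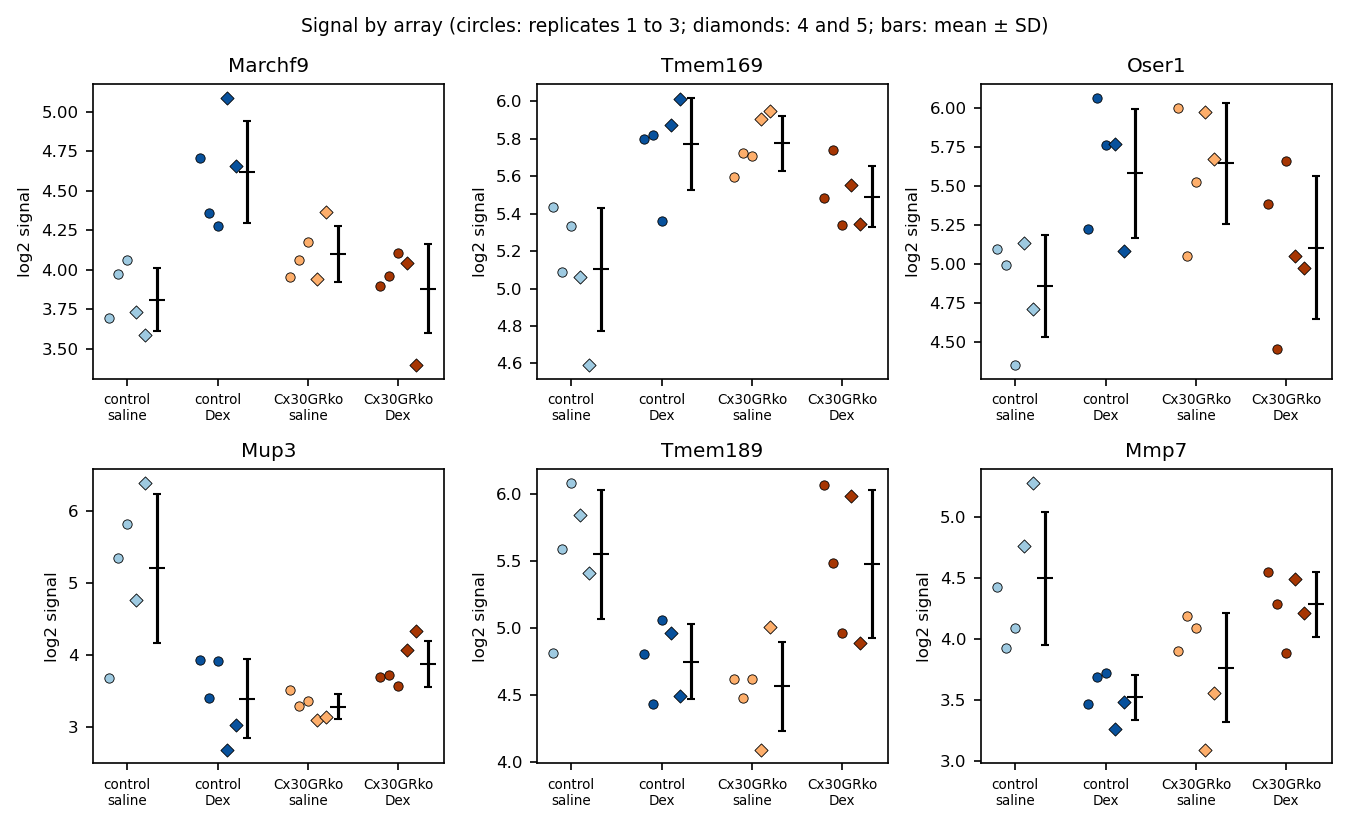
Log2 signal by array of 3 lead genes below 0 (Marchf9, Tmem169, Oser1) and 3 above 0 (Mup3, Tmem189, Mmp7), by group, with the mean ± SD beside the points. Marchf9 is high in control Dex, Mup3 is high in control saline, and in Tmem169 control saline lies below Cx30GRko saline.

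The described genes above 0 also included the mesenchymal transcription factors Twist1 (1.02 ± 0.27, SE) and Prrx2 (0.94 ± 0.28), the basement membrane protein Nid1 (1.28 ± 0.39) and the small proteoglycan Ogn (3.39 ± 1.16). In control mice Twist1 read 3.34, 3.59, 3.51, 3.84 and 3.45 under saline and 3.29, 2.95, 3.64, 3.03 and 2.73 under Dex. The Cx30GRko arrays had 2.51, 2.71, 2.60, 2.88 and 2.77 under saline and 3.42, 3.44, 2.99, 2.83 and 3.80 under Dex. Its saline groups did not overlap, with control saline the higher, whereas its Dex groups did. Ogn spanned 4.69 to 10.71 within Cx30GRko Dex and 4.05 to 7.69 within control Dex, and its interaction was 1.48 in replicates 1 to 3 against 6.26 in replicates 4 and 5. The membrane protein Emp1 (1.00), the potassium-chloride cotransporter Slc12a4 (1.21), the actin-binding protein Lima1 (0.78), Klhl15 (0.79), Sema3g, a secreted semaphorin (0.74), Tmem159 (1.06), Tmem81 (0.88) and the keratin Krt6a (1.13) were also above 0. Rpl7l1 (1.95) and Cts7 (0.89) have close relatives and are uncertain.

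Across functions, 49 lists were read, 35 of functions and 14 of cell type markers, with 741 of 814 distinct members measured. The interaction of the list mean had 1 sign in both array sets for 28 lists, 24 above 0 and 4 below 0. It was above 0 for 27 lists in replicates 1 to 3 and for 42 in replicates 4 and 5. Its size exceeded 2 SE for 6 lists, a description that is not corrected for the number of lists. These were meningeal fibroblasts (1.01 ± 0.43, SE), TGF-beta and BMP signalling (0.32 ± 0.14), microglia (0.20 ± 0.09), barrier junctions and transporters (0.36 ± 0.18), FoxO, atrophy and mTOR genes (0.18 ± 0.09) and erythrocytes (0.35 ± 0.13), of which only 2 members were measured. Counts of members below are read against all genes, of which 52.8% lay above 0, 2.51% were above 0 at an unadjusted p under 0.05 and 2.4% below 0.

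**Figure D4:**
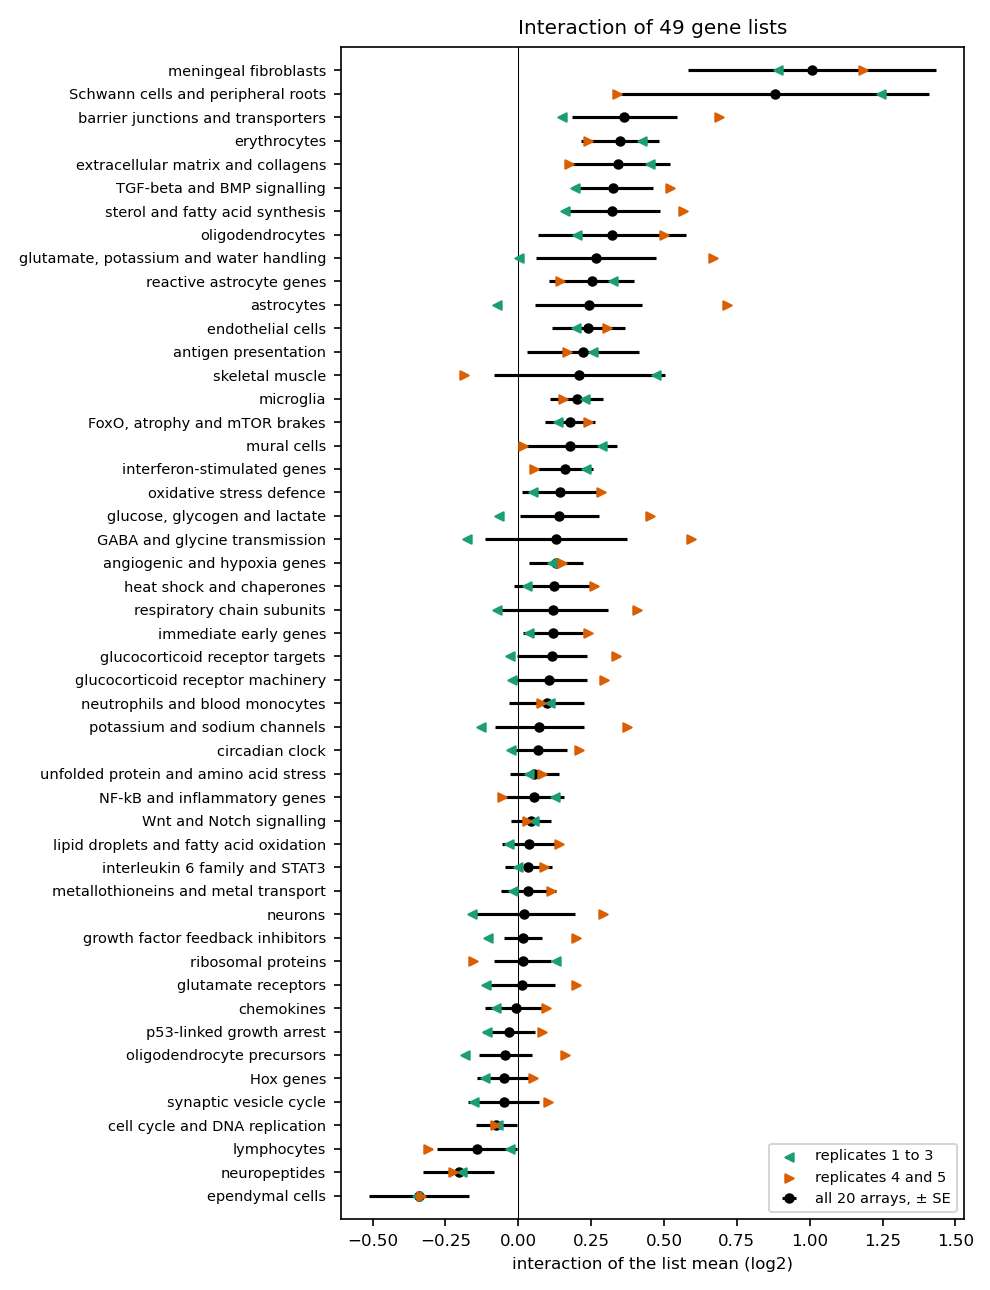
Interaction of the list mean (log2) for 49 gene lists, with circles and bars for all 20 arrays ± SE and triangles for each array set. Meningeal fibroblast and Schwann cell markers lie farthest above 0, ependymal markers farthest below, and in many lists of neural and astrocyte function the triangles lie on opposite sides of 0.

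Markers of meningeal fibroblasts, the cells that build the membranes around the cord, had the largest interaction of a list mean. All 14 were above 0 (52.8% of all genes), with a median of 0.81 (1.06 and 0.59 in the array sets), and 3 of 14 had an unadjusted p under 0.05 above 0 (2.51% of all genes). Their mean was -0.16, 0.56, 0.70, 0.30 and 0.39 in control saline and 0.27, -0.06, -0.96, -0.38 and -0.27 in control Dex. Values in Cx30GRko mice were 0.16, 0.06, -0.79, -0.36 and -0.17 under saline and -0.82, 0.24, 0.81, 0.54 and -0.05 under Dex. The widest spread lay within Cx30GRko Dex, from -0.82 to 0.81, and all groups overlapped. The interaction of the mean, 1.01, came from a Dex effect of -0.64 in control and 0.37 in Cx30GRko mice. Dcn, decorin, had 2.10 ± 0.81 (SE), Col1a2, a chain of type I collagen, 1.30 ± 0.64, and Slc22a6, an organic anion transporter of the meninges, 0.89 ± 0.38. In bulk cord fewer cells of a type and less RNA per cell cannot be told apart.

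Markers of Schwann cells, the myelinating cells of the roots, lay in the same direction as the meningeal ones. All 8 measured were above 0, with a median of 0.91, higher than that of the meningeal list (1.21 and 0.26 in the array sets), and the interaction of their mean was 0.88 ± 0.53 (SE). Their mean read -0.93, 0.23, 0.78, 0.49 and -0.51 in Cx30GRko Dex, and 0.39, -0.66, -0.90, -0.08 and 0.25 in control Dex. Pmp22, a protein of peripheral myelin, had 1.54 ± 0.60 (SE), Egr2, the transcription factor that drives that myelin, 1.15 ± 0.56, Ncmap 0.79 and Drp2 0.92.

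Matrix and growth factor lists also had medians above 0. Of 23 genes of the extracellular matrix, which share 3 collagens with the meningeal list, 16 were above 0 (69.6%, against 52.8% of all genes; median 0.27), 6 at an unadjusted p under 0.05 above 0 (2.51% of all genes) and 1 below (2.4%). Lama2, a laminin chain, had 1.07, Col6a1 1.00 and Timp3, a metalloprotease inhibitor, 0.82, while Timp1, its stress-induced relative, had -0.85 ± 0.27 (SE). Of 20 genes of TGF-beta and BMP signalling 18 were above 0 (90%), with 1 at an unadjusted p under 0.05, the co-receptor Tgfbr3 at 0.85. The median of that list was 0.31 over all arrays, 0.12 in replicates 1 to 3, and 0.10 without Cx30GRko Dex replicates 4 and 5. Reactive astrocyte genes had a median of 0.28 over all arrays, but 0.10 and 0.04 within the array sets, 0.10 after quantile normalization and 0.08 over all probe sets with 1 symbol. Of the 19, 13 were above 0 (68.4%), with 5 at an unadjusted p under 0.05 above 0 and 1 below. The 1 below was Timp1, which is a member of this list too. Among those above were Emp1, the intermediate filament gene Vim (0.73) and Fbln5 (0.75), which fibroblasts also express. The part of meningeal and root content in these values was not tested.

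Astrocyte markers, the cell type in which the receptor is targeted, split by array set. Of the 20, 17 had an interaction above 0 over all arrays, 5 in replicates 1 to 3 and 19 in replicates 4 and 5, with medians of 0.23, -0.04 and 0.60. Their mean was 0.04, -0.06, 0.05, 0.73 and 0.44 in Cx30GRko Dex, where replicates 4 and 5 stood above every other array of the series, and it was between -0.31 and 0.04 on the other 15 arrays. Without that pair of arrays the median was -0.04. The glutamate transporter Slc1a3 (0.72), the astrocyte membrane protein Mlc1 (0.65), the amino acid transporter Slc7a10 (0.67) and the potassium channel Kcnj10 (0.46) had -0.08, -0.04, -0.10 and -0.01 in replicates 1 to 3.

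Other lists had medians that were smaller in size without the same pair of arrays. Genes of glutamate, potassium and water handling had a median of 0.23 (-0.04 and 0.50 in the array sets), and -0.08 without Cx30GRko Dex replicates 4 and 5. The glutamine transporter Slc38a3 had 0.83, made of 0.14 and 1.88 in the array sets. Sterol and fatty acid synthesis had 17 of 19 genes above 0 and a median of 0.32 (0.11 and 0.58), and 0.02 without the pair. Hsd17b7, a sterol synthesis enzyme, had 0.75 (0.51 and 1.11), and Srebf2, the master regulator of the pathway, 0.91 (-0.11 and 2.44). Barrier junctions and transporters had 0.35 (0.14 and 0.71), and 0.01 without the pair, with the tight junction gene Tjp1 at 0.07 and 2.05 in the sets. Oligodendrocyte markers had 0.29 (0.10 and 0.49), and -0.07 without the pair. Sterol, barrier and oligodendrocyte medians were thus above 0 in both sets and the glutamate and potassium list was not. None of these 4 lists kept a median above 0.1 in size once the pair was left out. That fit still holds the other arrays of replicates 4 and 5. In replicates 1 to 3, which lack the pair, 12 of 12 oligodendrocyte, 15 of 19 sterol and 12 of 17 barrier genes were above 0. For the glutamate and potassium list it was 5 of 16, and for all genes 10703 of 22180.

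**Figure D5:**
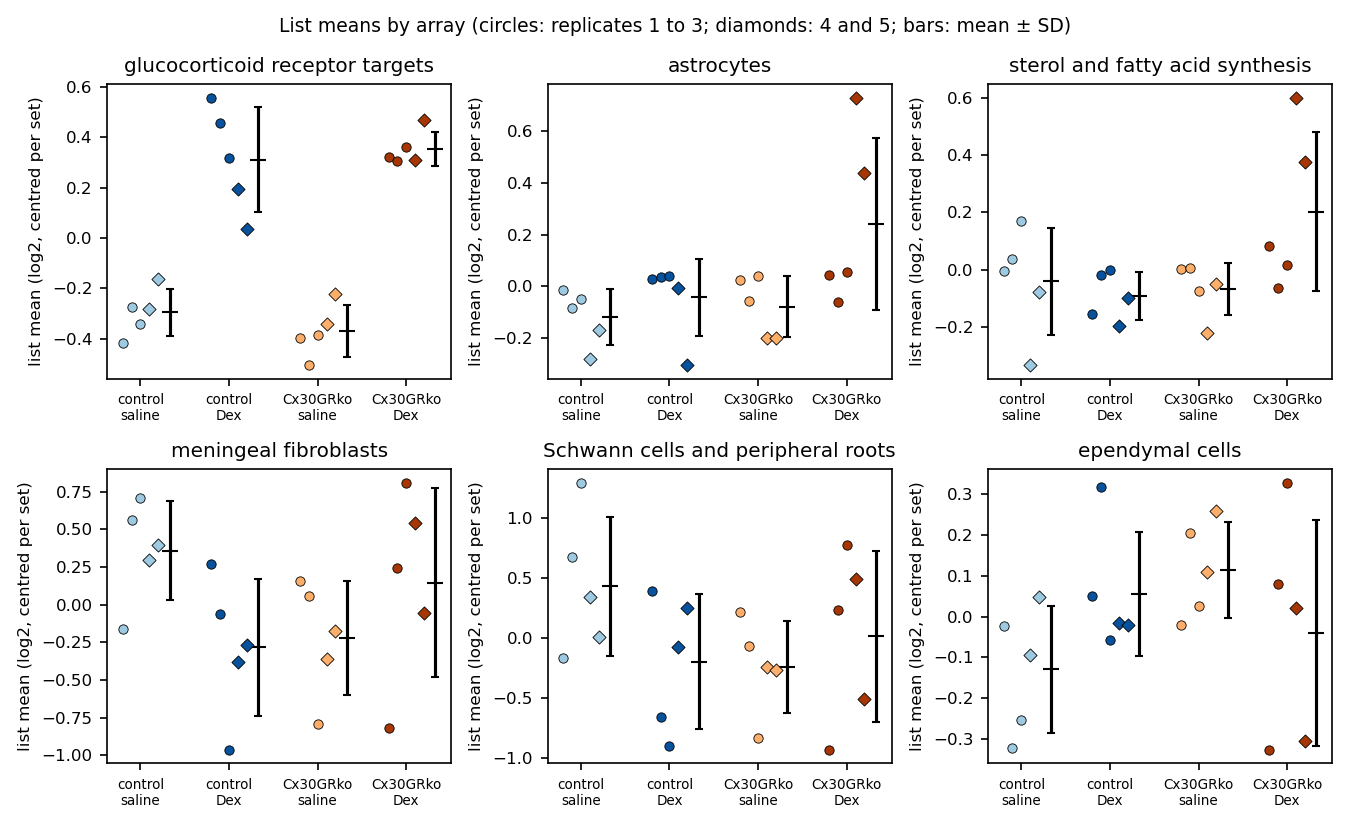
Mean of each list by array (log2, centred within array sets), by group, with the mean ± SD beside the points. Glucocorticoid receptor targets separate Dex from saline in both genotypes, astrocyte and sterol genes are high in Cx30GRko Dex replicates 4 and 5, and meningeal and Schwann cell markers vary widely within groups.

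The medians of the microglia and interferon lists were nearly equal with and without that pair, but not under every other setting. With single arrays left out they ran from 0.11 to 0.26 for microglia and from 0.04 to 0.22 for interferon. Among the brighter genes alone they were 0.09 for microglia and 0.09 for interferon. Microglia markers had 11 of 15 above 0 and a median of 0.22, and 0.21 without the pair. P2ry12, a purine receptor of resting microglia, had 0.75 ± 0.29 (SE) and the fractalkine receptor Cx3cr1 0.65 ± 0.31, with Dex effects of -0.39 and -0.38 in control and of 0.36 and 0.27 in Cx30GRko mice. P2ry12 was 0.37 in replicates 1 to 3 against 1.32 in replicates 4 and 5, where Cx30GRko Dex replicate 5 was high (6.89, the others 5.96 to 6.13), and 0.59 without the pair, and Cx3cr1 was 0.46 without it. Interferon-stimulated genes had a median of 0.14, and 0.15 without the pair, with 2 of 18 at an unadjusted p under 0.05 above 0. Irf9, a factor of the interferon response, read 5.88, 5.79, 5.88, 5.34 and 5.93 under saline and 5.14, 5.34, 5.33, 5.18 and 5.38 under Dex in control mice. The Cx30GRko arrays had 6.13, 5.36, 5.91, 5.73 and 5.67 under saline and 5.52, 5.85, 6.48, 5.85 and 6.66 under Dex. Control Dex lay below every Cx30GRko Dex array and overlapped control saline by 1 array. The interaction was 0.80 ± 0.28 (SE), 0.73 and 0.91 in the sets. The cytokine Il1b had 0.66 ± 0.23 (SE) and the chemokine Cxcl9 0.97 ± 0.34, whereas their lists had medians of 0.07 and -0.07, and of 0.06 and 0.00 without the pair. Cxcl9 was 0.30 in replicates 1 to 3 against 1.96 in replicates 4 and 5, with Cx30GRko Dex replicate 5 at 5.65 and the others of that group at 4.32 to 4.65, and it was 0.63 without the pair. Il1b was 0.43 and 1.01 in the sets and 0.66 without the pair.

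Below 0 the list mean with the largest interaction was that of ependymal cells, the ciliated lining of the central canal, with 10 of 11 markers below 0. The array sets did not share their members: 3 were above 0 in replicates 1 to 3 and 4 in replicates 4 and 5. Only 4 were below 0 in both sets, and 36.4% had 1 sign in both, against 48.6% of all genes. The median was -0.22 (-0.39 and -0.47 in the sets), and the interaction of the mean was -0.34 ± 0.17 (SE), from 0.18 in control to -0.16 in Cx30GRko mice. The cilia genes Cfap126 (-0.91), Spag6l (-0.80) and Ak7 (-0.75) carried the most. The mean was -0.33, 0.08, 0.33, 0.02 and -0.31 in Cx30GRko Dex and 0.05, 0.32, -0.06, -0.01 and -0.02 in control Dex, so the Dex groups overlapped. Neuropeptide genes had 12 of 16 below 0 and a median of -0.16, with Npy at -1.12 (-0.47 and -2.08 in the sets) and Nmu at -1.04 (-0.04 and -2.52). Synaptic vesicle genes had a median of -0.17, with Vamp2, a vesicle membrane protein, at -0.65 ± 0.26 (SE).

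Further lists had medians above 0 in both sets. FoxO, atrophy and mTOR genes, which brake growth and drive protein breakdown, had 15 of 21 above 0 and a median of 0.22 (0.12 and 0.33), and 0.13 without the pair. Txnip, a stress-responsive inhibitor of thioredoxin and glucose uptake, had 0.80 ± 0.36 (SE), made of 0.27 and 1.59. Endothelial markers had 10 of 16 above 0 and a median of 0.30 (0.19 and 0.38), and 0.07 without the pair. Antigen presentation genes had 9 of 12 above 0 and 0.20 (0.28 and 0.18), and 0.02 without it. Angiogenic and hypoxia genes had 12 of 19 above 0 and 0.21 (0.06 and 0.17), and 0.03 without it. The 2 erythrocyte markers had 0.35 (0.42 and 0.24), and 0.50 without it. Among the brighter genes alone the medians were 0.24 for FoxO, 0.01 for endothelial, 0.27 for antigen presentation and 0.08 for angiogenic genes. The FoxO, antigen presentation and angiogenic lists each had 1 gene at an unadjusted p under 0.05 above 0 and 1 below.

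Growth factor feedback inhibitors had a median of 0.10 (0.04 without the pair), and Dusp18, a phosphatase, had Dex effects of 0.92 in control and 0.42 in Cx30GRko mice, an interaction of -0.50 (-0.48 and -0.54). In the p53-linked list, with a median of 0.03 (-0.12 without the pair), Gadd45g had Dex effects of 1.12 and 0.38 and an interaction of -0.74 (interval -1.50 to 0.03). Among angiogenic genes Aplnr, the apelin receptor of vessels, had Dex effects of -0.95 and -0.28 and an interaction of 0.67 in both sets. Circadian genes had a median of 0.04 (0.02 without the pair), with Nr1d2 at -0.11 and 2.79 in the sets. Genes of the receptor's own machinery had 0.10, and -0.11 without the pair, with the coactivator Ncoa3 at 0.47, and 0.34 without it. Neuron, glutamate receptor and Hox lists had medians of 0.07, 0.04 and 0.06, which were -0.21, -0.14 and 0.02 without the pair.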

How the data were processed

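Biotin-labelled RNA of mouse spinal cord was measured on Affymetrix whole-transcript arrays, 1 array for each sample. The authors deposited 1 table of log2 values per probe set. Per the submitters' processing notes oligo was used. Its version, the normalization and the annotation are not given in the sources used here. Every probe set had the same mean in both array sets, with a largest difference of 4.5e-09, so the deposited log2 values had been centred within the sets.

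Of 41345 probe sets, 23521 had 1 gene symbol, 1814 several and 16010 none in the platform annotation. For the 1082 genes with several probe sets the one with the highest mean was taken, which left 22180 genes. No filter on signal was used. Groups were read from the sample titles, with Tg taken as Cx30GRko and wt as control.

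A mean per group and the array set as a block were fitted with limma 3.58.1 in R 4.3.3 (15 residual and 5.77 prior degrees of freedom), with two-sided p-values adjusted over all genes by the Benjamini-Hochberg method and called under 0.05. The fit was tested on simulated data with 200 changed genes. Lists were described by counts, medians and the mean over members per array, with no test. Named were the 12 smallest p and the 10 largest in both sets in each direction, the 24 Dex genes, up to 4 members of each list and 12 fixed genes. The members and lists were chosen with earlier results of these data known. The number of arrays limits the precision.

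Alternatives were other blocks, array weights, normalizations, probe set choices, a signal filter, thresholds and leaving out arrays. Figures were drawn with matplotlib in Python.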

Additional observations from a re-analysis of the deposited data

Results flagged for a closer look

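In 55 of the 600 groups of 5 arrays formed by 101 named genes and 49 lists, 1 array lay far from the other 4 (a gap of over 0.71 of the group's range). Chance alone sets about 1 in 20 groups apart in this way. Of the 55, 45 lay in replicates 4 and 5 and 10 in replicates 1 to 3. Values are log2, and list values are means centred within the array sets.

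Control Dex replicate 5 was low in Slc25a13 (5.06), Slc2a1 (7.93), Slc12a4 (3.86), Rpl7l1 (4.15), Kcnj10 (7.53) and Mthfd2 (5.38), and high in Sema3g (4.37). It was also low in the lists of astrocytes (-0.31), glutamate, potassium and water handling (-0.24), FoxO and atrophy genes (-0.17) and potassium and sodium channels (-0.16), and high in inflammatory NF-kB genes (0.32). Control Dex replicate 4 was low in Fam214a (7.02) and high in Ccng1 (8.80) and in interferon-stimulated genes (-0.02). Control Dex replicate 3 was low in Cts7 (3.33), Col1a2 (5.25) and lymphocyte markers (-0.10).

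Control saline replicate 4 was high in Cts7 (5.00), Nr1d2 (7.03), Col6a1 (7.34) and chemokines (0.32), and low in Irf9 (5.34), Slc7a10 (6.25) and Sox2 (5.72, where the other arrays read 7.39 to 7.53). Control saline replicate 5 was high in Pnpla2 (6.06) and Il1b (3.82) and low in Errfi1 (5.99) and angiogenic genes (-0.22). Control saline replicate 2 was high in Gjb6 (6.46), and replicate 1 was low in Egr2 (5.91) and high in metallothioneins (0.08).

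Cx30GRko Dex replicate 4 was high in Fbxo32 (6.31), Ncoa3 (7.46), oxidative stress defence (0.44), metallothioneins (0.34) and potassium and sodium channels (0.62). Cx30GRko Dex replicate 5 was high in Tmem159 (6.53), P2ry12 (6.89) and Cxcl9 (5.65) and low in Emp1 (4.15). Replicate 1 of that group was low in Col1a2 (5.25), against 6.65 to 7.21 on the other arrays.

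Cx30GRko saline replicate 4 was low in Cdkn1a (6.03), Ccng1 (6.51), Rab31 (7.70), Ppp1r3c (5.29) and potassium and sodium channels (-0.21), and high in Mthfd2 (6.35). Cx30GRko saline replicate 5 was low in Zbtb16 (5.54), Ppp2r3a (6.51), Slc1a3 (5.95) and microglia markers (-0.29). Replicate 3 of that group was low in Lama2 (5.18), Fbln5 (3.71) and erythrocyte markers (-0.30).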

How the results depend on the processing

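The interaction called 0 genes in every setting but 1, which left out control saline replicate 1 and called Mup3 (0 to 1 over the 20 fits without 1 array). Genes called for the Dex effect numbered 3 in control mice, 2 in Cx30GRko mice and 24 for the mean effect, and 0 to 4, 0 to 4 and 14 to 29 without 1 array. The counts in control, in Cx30GRko mice and for the mean effect were 38, 7 and 101 in replicates 1 to 3 alone, 0, 0 and 0 in the other set, 59, 17 and 132 with array weights, 45, 13 and 114 with weights per set, 0, 0 and 11 at a threshold of 0.01, 0, 0 and 14 over all 41345 probe sets, and 1, 0 and 2 without replicate 1 of every group. In control and Cx30GRko mice they were 5 and 0 without Cx30GRko Dex replicates 4 and 5, and in Cx30GRko mice 4 with no array set block, 5 among the brighter 50% of genes and 4 at a threshold of 0.10. The share of genes with 1 sign in both sets (48.6%) was 47.8% among the brighter 50% of genes and 48% to 49.7% without 1 array. The share of control Dex genes with a smaller response (47.8%) was 52.8% without replicate 1 of every group and 44.9% to 53.8% without 1 array. The cause was not tested. The whole probe set table and the fits without replicate 1 of every group were added after the data were seen.

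With the replicate number as a block the interaction called 0 genes (995 at an unadjusted p under 0.05) and the Dex effect 0, 0 and 15. Residuals of samples with the same number correlated between -0.11 and 0.11. In replicates 4 and 5 the residuals within a group mirror each other, so this reading could not settle whether the numbers mark a pairing. Of 3679 pairs of a named gene and an alternative, 3593 kept the sign of the interaction. Of these, 957 belong to lead genes chosen for their interaction, so they say nothing of stability. Nor do other blocks, a variance trend and other thresholds, which leave the estimate unchanged in this balanced design. Of 1665 list values, which include those blocks and that trend, 113 moved. A list counted as moved only if its median shifted by the residual SD of its mean or more (0.19 for neurons, 0.21 for astrocytes). Smaller shifts across 0 counted as unmoved, such as neurons from 0.07 to -0.08 after quantile normalization. With 5 arrays per group and a median half-width of 0.60 before adjustment, smaller losses could not be seen. Larger ones could also be missed after adjustment over all genes.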
